A study of Mus musculus with 38 samples.

Results

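The 9 genes described here encode integrin chains of leukocytes: Itga4, Itgb1, Itgal, Itgb2, Itgae, Itgb7, Itgb3, Itgav and Itga6. They were taken by symbol from 4 deposited tables of RNA-seq counts that hold 31053 gene symbols, and all 9 were found. The 38 libraries came from mouse Th17 cells of the C57/B6 background, each made from 2000 sorted cells, and fall into 10 groups. For the in vivo groups, naive 2D2 T cells, which carry a transgenic receptor for a myelin antigen, were differentiated in culture toward an inflammatory Th17 state (Th17Inf) and transferred into wild-type recipients, which developed experimental autoimmune encephalomyelitis (EAE). At peak disease 2D2+ cells were sorted. The donors were CHD1 WT or CHD1 cKO, giving 3 WT and 4 cKO libraries from the central nervous system (CNS) and 3 WT and 4 cKO libraries from the draining lymph nodes (dLN), or GR WT or GR cKO, giving 4 libraries of each from the CNS. CHD1 is a chromatin remodeller and GR is the glucocorticoid receptor. The sample labels write KO where the design text writes cKO, and the Cre driver and the age of the animals are not given in the sources used here. For the in vitro groups, WT and IL-23R KO Th17Inf cells were cultured for 2 days with or without dexamethasone (Dex), a synthetic glucocorticoid, giving 4 libraries for each of WT control, WT Dex, IL-23R KO control and IL-23R KO Dex. The labels do not say whether the libraries of a group came from separate animals or cultures, so p-values measure the spread between these libraries, which may be technical.

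Integrins are surface receptors made of an alpha and a beta chain, and a T cell needs them to stop on vessel walls, to leave the blood and to stay in a tissue. Itga4 pairs with Itgb1 to form VLA-4, which binds VCAM-1 and fibronectin and is the receptor blocked by natalizumab in multiple sclerosis, and with Itgb7 to form the gut-homing receptor for MAdCAM-1. Itgal and Itgb2 form LFA-1, the receptor for ICAM-1, and Itgb2 is also the beta chain of the myeloid integrins made with Itgam and Itgax. Itgae encodes CD103, which pairs with Itgb7 to bind E-cadherin and marks many tissue-resident and CD8 T cells. Itgav pairs with Itgb3 or Itgb1 among others, binds vitronectin and can activate latent TGF-beta, and Itga6 pairs with Itgb1 to bind laminin.

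The genes lie on 6 chromosomes of the mm10 build. Itga4 spans chr2:79255426-79333123, Itgav chr2:83724397-83806916 and Itga6 chr2:71745616-71858416 on the plus strand of chromosome 2. Itgae, at chr11:73090583-73147446, and Itgb3, at chr11:104608000-104670476, are also on plus strands, as are Itgb1 at chr8:128685654-128733200, Itgal at chr7:127296260-127335138 and Itgb2 at chr10:77530252-77565708. Itgb7, at chr15:102215995-102231944, is on the minus strand.

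RefSeq promoter sequences of the GRCm38.p6 build were matched for 4 of the 9 genes. All 4 are shown: those of Itga4, Itgb1, Itgb7 and Itgav. The transcripts of Itga4, Itgb1 and Itgb7 were lower in the CNS than in the dLN of CHD1 WT cells. That of Itgav changed most among the 9 genes in culture. Each is the 250 bases before the RefSeq transcription start, 5′ to 3′ along the gene's strand, in lower case with motif matches in capitals. The windows are chr2:79255176-79255425 on the plus strand for Itga4, chr8:128685404-128685653 on the plus strand for Itgb1, chr15:102231936-102232185 on the minus strand for Itgb7 and chr2:83724147-83724396 on the plus strand for Itgav.
Itga4: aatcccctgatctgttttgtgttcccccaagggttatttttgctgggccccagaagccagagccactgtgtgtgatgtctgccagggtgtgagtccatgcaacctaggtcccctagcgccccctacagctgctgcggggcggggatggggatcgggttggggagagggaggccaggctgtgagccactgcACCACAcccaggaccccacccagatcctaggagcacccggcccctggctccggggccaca
Itgb1: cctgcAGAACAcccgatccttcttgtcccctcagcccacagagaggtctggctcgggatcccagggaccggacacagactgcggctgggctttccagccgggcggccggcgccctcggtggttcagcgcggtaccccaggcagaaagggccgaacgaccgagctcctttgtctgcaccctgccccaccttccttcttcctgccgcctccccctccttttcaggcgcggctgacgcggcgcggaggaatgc
Itgb7: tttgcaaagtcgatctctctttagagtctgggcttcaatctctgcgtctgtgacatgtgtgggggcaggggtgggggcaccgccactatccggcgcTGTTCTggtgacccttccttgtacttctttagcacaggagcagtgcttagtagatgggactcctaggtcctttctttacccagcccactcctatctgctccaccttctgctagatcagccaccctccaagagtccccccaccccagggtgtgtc
Itgav: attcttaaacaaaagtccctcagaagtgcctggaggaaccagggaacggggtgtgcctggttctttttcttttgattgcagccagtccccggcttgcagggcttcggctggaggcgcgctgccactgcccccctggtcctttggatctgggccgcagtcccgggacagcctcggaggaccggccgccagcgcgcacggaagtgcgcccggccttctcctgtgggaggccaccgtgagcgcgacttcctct
On both strands 3 motifs were searched: the RUNX core TGTGGT, the glucocorticoid receptor core AGAACA and the hypoxia response core ACGTG. The Itga4 window held 1 RUNX core, as its reverse complement ACCACA, beginning 60 bases before the start, and 13.96% of 32536 promoter windows of this length held one. The Itgb7 window held 1 receptor core, as TGTTCT, beginning 154 bases before the start, the Itgb1 window held 1 as AGAACA, beginning 245 bases before the start, and 16.03% of the windows held one. The hypoxia response core, held by 16.65% of the windows, was in none of these 4 sequences, and the Itgav window matched none of the 3 motifs. These matches describe letters only and say nothing of binding.

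The identity of the sorted cells was checked before the comparisons. The T cell receptor segment Trbv16, the beta chain segment of the 2D2 receptor, took 99.0% to 99.7% of Trbv counts in the CNS libraries and 99.2% to 99.5% in the CHD1 WT dLN libraries, but 91.8% to 98.7% in the 4 CHD1 cKO dLN libraries. In those 4 libraries Cd8a, which CD4 T cells lack, was at 59.2, 147.9, 92.0 and 20.4 CPM, the gene's count scaled to the same library total in each sample, against 1.74, 0.318 and 1.07 in the WT dLN libraries. The 6 B cell markers summed to 251, 287, 243 and 107 CPM in the cKO and 120, 99.4 and 146 in the WT dLN libraries. None of the 5 tested was called between these genotypes. All CNS libraries carried myeloid transcripts: 15 myeloid markers summed to 2277 to 8041 CPM there, to 35.8 to 111 in the dLN and to 7.02 to 24.4 in culture, where Lyz2, C1qb and C1qc were at 0 in all 16 libraries. The 8 T cell markers summed to 1633 to 3682 CPM in the in vivo libraries. Th17 markers were low in vivo, at 5.79 to 14.4 CPM summed over 8 genes in the dLN, where Il17a and Il22 were at 0 in all 7 libraries. They varied between WT cultures, at 368, 106, 127 and 116 CPM in control and 481, 458, 149 and 159 in Dex libraries. In IL-23R KO cultures they summed to 33.4 to 56.1 CPM in control and 34.5 to 49.1 in Dex libraries. Total counts ranged from 3148634 to 5158450 in the dLN, 4911109 to 6262849 in the CHD1 CNS, 6281769 to 9159671 in the GR CNS and 3320586 to 4732419 in culture. Nr3c1, the gene of GR, was at 5.25 to 5.68 CPM in GR cKO and 11.1 to 18.01 in GR WT libraries, whereas Chd1 overlapped between genotypes and does not check those labels. Il23r was at 6.33 to 8.66 CPM in WT control and 2.25 to 6.22 in IL-23R KO control libraries, so transcripts of the gene were still counted in the knockout.

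**Figure D1:**
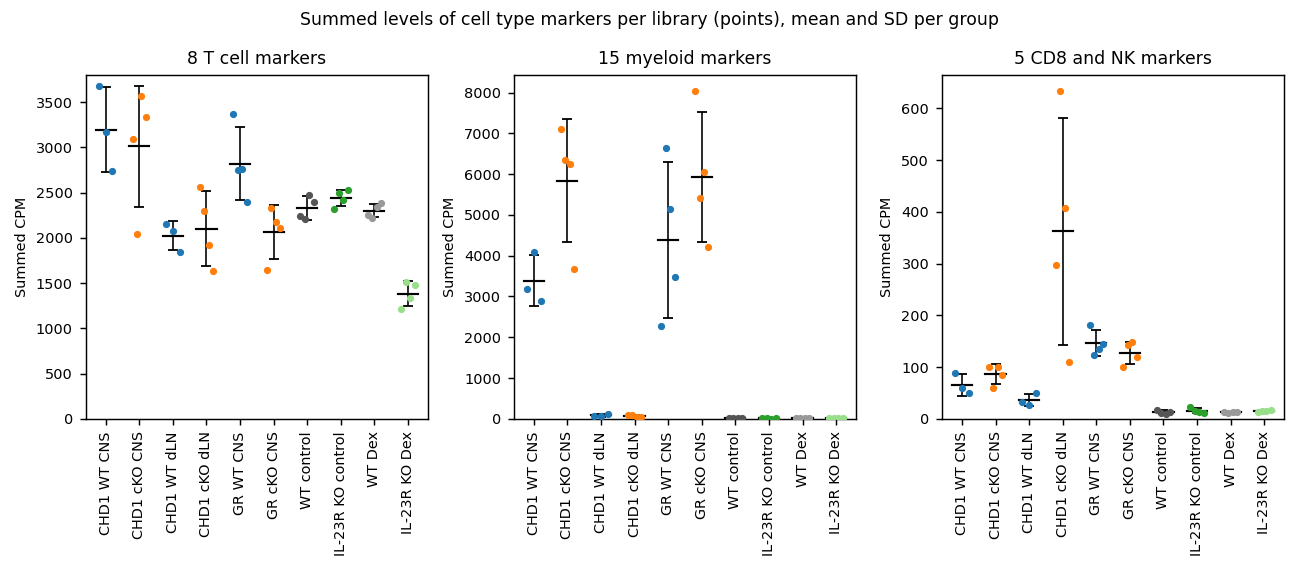
Summed CPM (vertical axes, linear) of 8 T cell, 15 myeloid and 5 CD8 and NK cell markers per library in the 10 groups; points are libraries, horizontal lines group means and bars SD. Myeloid markers lie between 2277 and 8041 CPM in the CNS groups and below 111 elsewhere, and CD8 and NK markers reach 634 CPM in 1 CHD1 cKO dLN library.

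Levels of different genes were compared per kilobase of the principal transcript. Itgb2 was the most abundant of the 9 genes in the CNS, at 128.0 ± 24.5 CPM per kb (SD, n = 3) in CHD1 WT, and in culture, at 74.4 ± 8.55 (n = 4) in WT control. In the dLN Itgb7 was highest, at 117.9 ± 13.4 CPM per kb in CHD1 WT (n = 3), with Itgb2 next at 55.6 ± 7.89. In CHD1 WT CNS libraries Itgb7 (92.6 ± 12.1 CPM per kb) overlapped Itgb2, followed by Itgal (44.3 ± 6.52), Itgb1 (23.7 ± 0.639) and Itga4 (3.94 ± 0.154) without overlap between neighbours. Itgav (2.44 ± 0.144), Itgae (2.36 ± 1.06), Itga6 (1.52 ± 0.544) and Itgb3 (0.884 ± 0.0769) followed, and each overlapped its neighbour. In CHD1 WT dLN libraries the order after Itgb2 was Itgb1 (35.7 ± 3.82), Itgal (18.9 ± 2.37) and Itga4 (12.8 ± 0.964), with Itgae last at 0.363 ± 0.123. In WT control cultures Itgb7 (33.2 ± 9.23) and Itgal (13.0 ± 0.681) followed Itgb2, and Itgav came next at 4.04 ± 0.972, above Itgb1 at 2.69 ± 0.307 without overlap. In IL-23R KO Dex cultures Itgav (7.13 ± 0.836) overlapped Itgal (7.27 ± 1.43). Itga4 was low in culture, at 0.635 ± 0.159 CPM per kb in WT control, and did not differ from Itga6 beyond their spread. Itgae was last in all 4 groups in culture, with 0 to 5 counts per library.

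**Figure D2:**
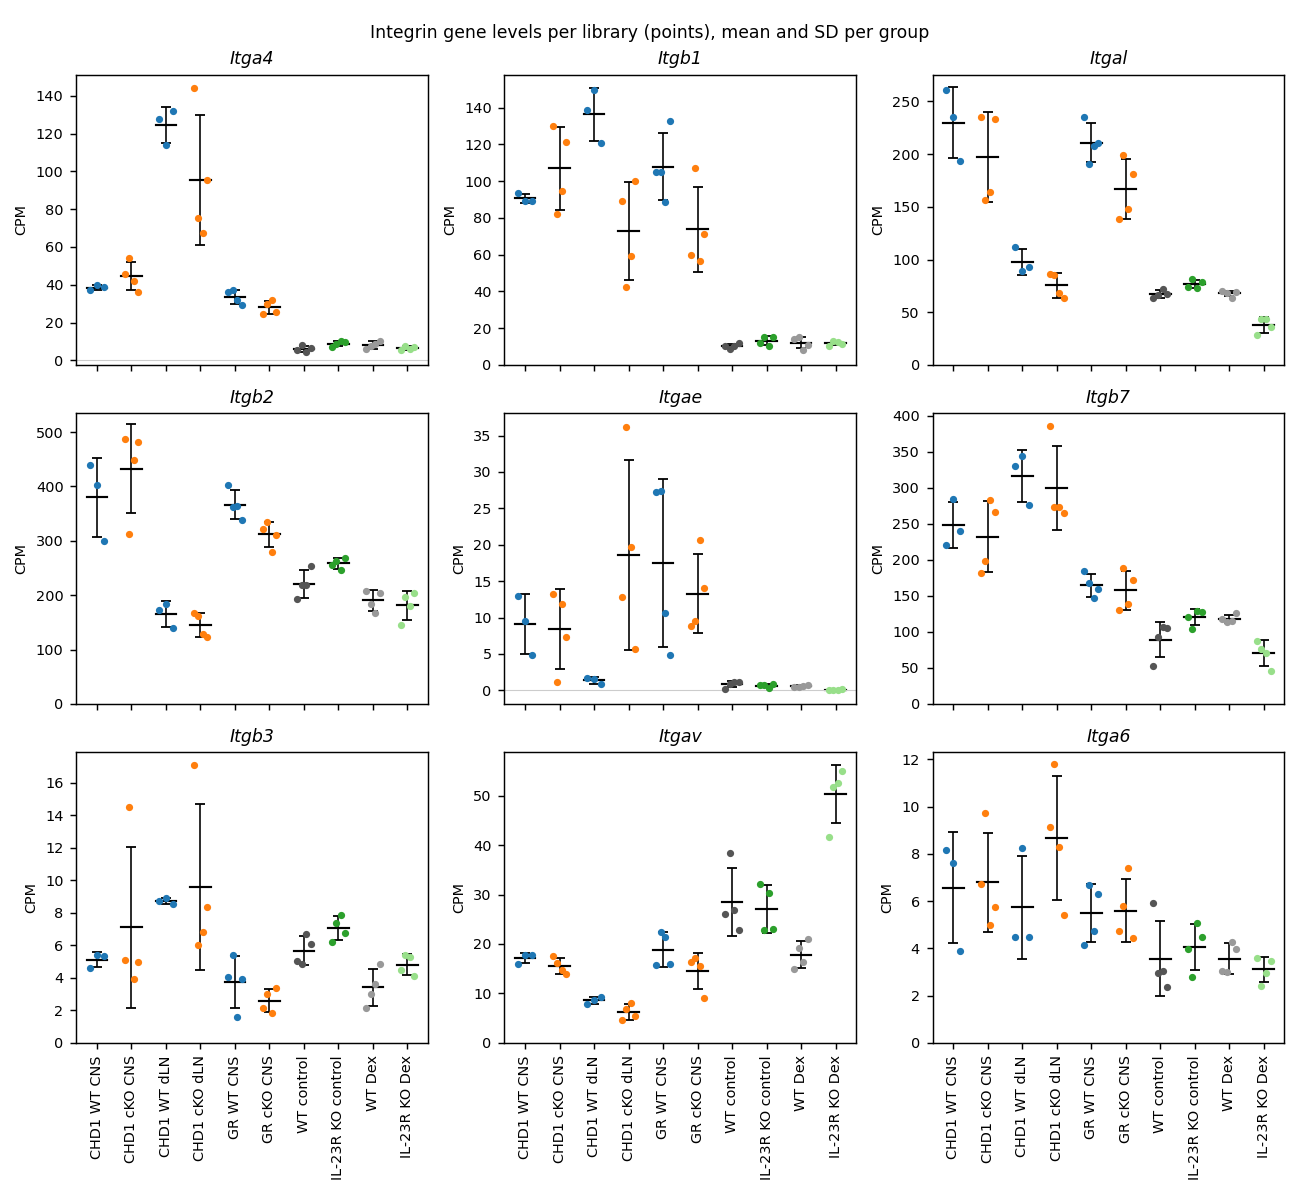
Level of each of the 9 integrin genes in CPM (vertical axes, linear, 1 panel per gene) in 10 groups; points are libraries, horizontal lines group means and bars SD. Itga4 lies at 114 to 132 CPM in CHD1 WT dLN and 37.0 to 40.0 in CHD1 WT CNS, and Itgav at 41.7 to 55.1 in IL-23R KO Dex cultures and 14.9 to 20.9 in WT Dex cultures.

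The first comparison asked how the genes differ between CNS and dLN cells of the same genotype. Both VLA-4 chains, Itga4 and Itgb1, and the gut-homing chain Itgb7 fell, and both LFA-1 chains, Itgal and Itgb2, rose in the CNS of CHD1 WT cells. That is 5 of the 9 members called at an adjusted p under 0.05, against 16.7% of the 11589 genes tested, with 2 higher against 11.8% of genes and 3 lower against 4.93%. In CPM, 7 members did not overlap between the tissues, against 41.7% of genes. Library sizes were scaled by TMM, which centres the fitted changes of all genes near 0, whereas in unscaled CPM the median gene was 0.35 (log2) higher in the CNS in WT and 0.59 higher in cKO cells. Repeat and rRNA features took 41.8% to 59.7% of counts in the dLN and 13.1% to 32.6% in the CHD1 CNS libraries. CPM was computed over all counts, and the part of this difference in the CPM values was not tested. Tissue and table cannot be told apart here, and in bulk samples fewer cells of a type and less RNA per cell cannot be told apart.

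Itga4 was at 37.0, 40.0 and 38.6 CPM in the 3 WT CNS libraries and at 128, 114 and 132 in the 3 WT dLN libraries. The groups lay far apart, and the fitted level was 4.24-fold lower in the CNS (log2 fold change -2.08 ± 0.24 SE, adjusted p = 2.69e-05). In cKO cells Itga4 was at 45.8, 54.0, 41.97 and 36.1 CPM in the CNS and 144, 75.2, 67.4 and 95.2 in the dLN. It was 3.32-fold lower in the CNS (-1.73 ± 0.20, adjusted p = 1.23e-05), without overlap. Itgb1, the shared beta chain of VLA-4 and the laminin receptor, was at 93.4, 89.3 and 89.1 CPM in WT CNS and 139, 149.6 and 121 in WT dLN libraries. Its fall of 0.96 ± 0.29 on the log2 scale (adjusted p = 0.0367) was no longer called when any 1 of these 6 libraries was left out (adjusted p 0.0774 to 0.12). In cKO cells its ranges overlapped, at 81.9 to 130.1 CPM in the CNS and 42.3 to 100.03 in the dLN, and the fitted difference was -0.12 ± 0.25 (adjusted p = 0.723).

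Itgb7 was at 221, 284 and 240.4 CPM in WT CNS and 329.7, 344 and 276 in WT dLN libraries. These ranges overlapped in CPM but not after TMM scaling, and the fit gave -0.72 ± 0.18 (adjusted p = 0.0135), which was not called without CNS library 1 of CHD1 WT (adjusted p = 0.068). In cKO cells Itgb7 fell by 0.99 ± 0.16 on the log2 scale (adjusted p = 0.000165).

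Itgal was at 261, 235 and 194 CPM in WT CNS and 112, 88.9 and 93.2 in WT dLN libraries, with no overlap. It rose 1.79-fold (0.84 ± 0.18, adjusted p = 0.0041) in WT and 1.70-fold (0.76 ± 0.15, adjusted p = 0.000985) in cKO cells. Itgb2, its partner, was at 439, 403 and 299 CPM in WT CNS and 173, 184 and 139 in WT dLN libraries. It rose 1.77-fold (0.83 ± 0.16, adjusted p = 0.00211) in WT and 1.94-fold (0.96 ± 0.14, adjusted p = 6.82e-05) in cKO cells. Myeloid transcripts moved with both LFA-1 chains: 14 of 15 myeloid markers were higher in the CNS in both genotypes, and Itgam, at 15.5 to 24.9 CPM in WT CNS libraries, was at 0.214 to 1.74 in WT dLN libraries. Their part in the rise of Itgal and Itgb2 was not tested. Of the 8 T cell markers only Cd2 in WT and Cd247 in cKO cells were called.

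In every WT dLN library the Itga4 level per kb was 0.606 to 0.754 times that of Itgal, and in every WT CNS library 0.0754 to 0.106 times. The ratio was 0.470 to 0.887 in cKO dLN and 0.0824 to 0.184 in cKO CNS libraries, so it fell in the same direction without overlap in both genotypes. A ratio within a library does not depend on how that library was scaled. In the GR experiment, the other CNS groups gave 0.0737 to 0.115.

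**Figure D3:**
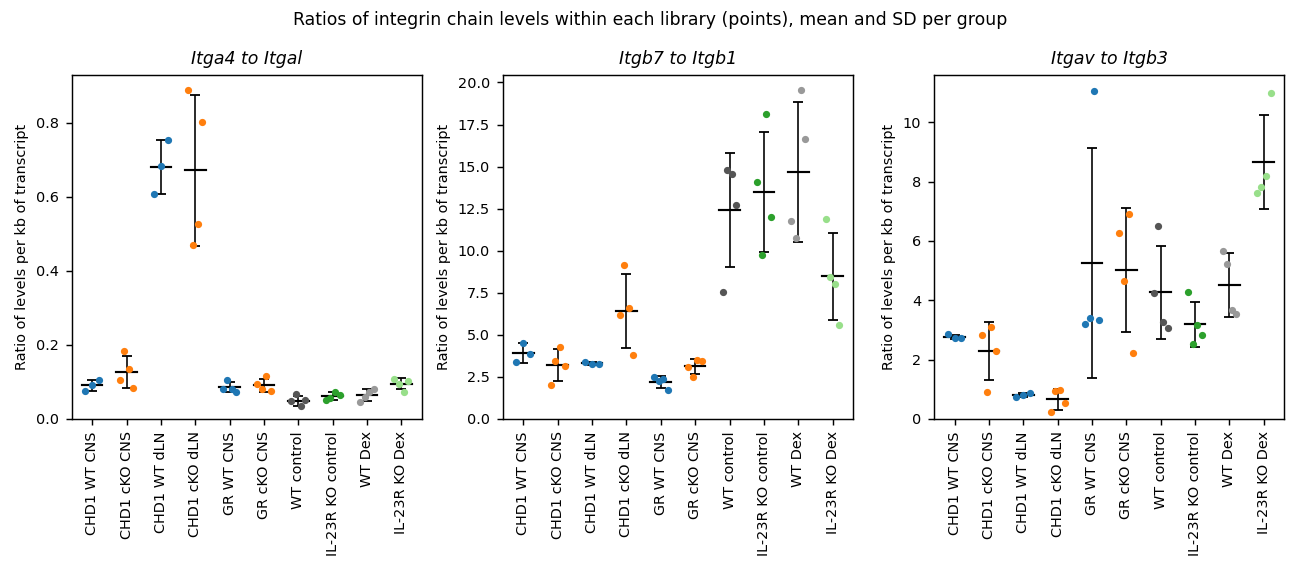
Ratio of the levels per kb (vertical axes, linear) of Itga4 to Itgal, Itgb7 to Itgb1 and Itgav to Itgb3 within each library in 10 groups; points are libraries, horizontal lines group means and bars SD. Itga4 to Itgal lies at 0.470 to 0.887 in the dLN groups and at or below 0.184 elsewhere, and Itgav to Itgb3 lies at 7.63 or above in IL-23R KO Dex cultures.

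The difference between genotypes was tested apart, and for the lower-expressed chains the values of both genotypes follow. Itgav, the vitronectin-binding alpha chain, was at 16.02, 17.9 and 17.7 CPM in WT CNS and 7.95, 8.58 and 9.19 in WT dLN libraries, with no overlap, but the scaled fit gave 0.61 ± 0.23 (adjusted p = 0.0899). In cKO cells it was at 17.5, 16.2, 14.8 and 13.9 CPM in the CNS and 4.57, 6.86, 8.07 and 5.43 in the dLN. It rose by 0.66 ± 0.21 (adjusted p = 0.0165), a call lost without cKO dLN library 1 (adjusted p = 0.0568). As with Itgal and Itgb2, the part of myeloid transcripts was not tested for Itgav. Itgb3, one of its beta chains, was at 4.602, 5.39 and 5.35 CPM in WT CNS and 8.70, 8.89 and 8.55 in WT dLN libraries, and the fit gave -1.15 ± 0.45 (adjusted p = 0.0985; 0.0208 without cKO CNS library 2, which shares the estimate of spread). In cKO cells Itgb3 fell by 1.06 ± 0.37 (adjusted p = 0.0292). That call was lost on leaving out any of 6 of the 14 libraries (adjusted p 0.051 to 0.13): CHD1 WT CNS 3, cKO CNS 1, 3 and 4, and cKO dLN 1 and 4. CNS library 2 of CHD1 cKO held 14.5 CPM of Itgb3 against 3.91 to 5.09 in the other CNS libraries of that group. Itga6 ranged from 3.87 to 9.74 CPM in the CNS and 4.47 to 11.8 in the dLN, and fell in cKO cells (-0.96 ± 0.25, adjusted p = 0.00619), with -0.16 ± 0.31 in WT cells (adjusted p = 0.777) and a difference of -0.80 ± 0.39 between them (adjusted p = 0.292). Without the 2 cKO dLN libraries with the most Cd8a, an alternative chosen after seeing the data, the cKO value was -0.73 (adjusted p = 0.095). In all, 8 of 9 members were called in cKO cells against 47.3% of genes, 3 higher and 5 lower, where the background was 24.6% higher and 22.7% lower. In CPM, 4 members did not overlap between the tissues, against 46.2% of genes.

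Itgae had fitted differences of opposite sign in the genotypes. It was at 13.0, 9.49 and 4.80 CPM in WT CNS and 1.74, 1.59 and 0.855 in WT dLN libraries, a fitted difference of 2.32 ± 0.84 (adjusted p = 0.0744). This difference was called with no filter (adjusted p = 0.0137), by DESeq2 (adjusted p = 0.0122) and without cKO CNS library 2 (adjusted p = 0.0226). Markers of other cells that can carry CD103 moved with it: the 4 regulatory T cell markers summed to 129 to 188 CPM in WT CNS and 32.3 to 40.7 in WT dLN libraries (3 of 4 called higher), and 6 dendritic cell markers to 41.5 to 68.9 against 1.59 to 2.24 (2 of 4 tested called higher). In culture the same 4 regulatory T cell markers summed to 359 to 871 CPM, so their sum is not particular to regulatory T cells. The part of both marker lists in the Itgae difference was not tested. In cKO cells it was at 13.2, 1.15, 11.9 and 7.34 CPM in the CNS and 12.8, 36.2, 19.6 and 5.62 in the dLN, a fall of 1.70 ± 0.53 (adjusted p = 0.0164) with overlapping CPM ranges. The same marker lists were higher in the CNS there, the regulatory T cell markers at 133 to 205 against 23.0 to 28.8 CPM (2 of 4 called higher) and the dendritic cell markers at 100.4 to 166 against 0.969 to 4.94 (4 of 4 tested called higher). The cKO call was lost without cKO dLN library 2 (-1.28, adjusted p = 0.0732) and without the 2 cKO dLN libraries with the most Cd8a (-0.72, adjusted p = 0.386). These 2 libraries also held the most Itgae of the cKO dLN group, so a smaller fall followed from the choice, made after seeing the data. The difference between the genotypes was -4.03 ± 0.99 (adjusted p = 0.0778). None of the 9 members was called for this interaction, where 0.112% of 11589 genes were, 2190 genes had an unadjusted p under 0.05 and DESeq2 called 586. Itgae was called for it with no filter on low counts (adjusted p = 0.00749), by DESeq2 (adjusted p = 0.00168) and without cKO dLN library 4 (adjusted p = 0.019), and Itgb1 without that library (adjusted p = 0.0486).

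Other genes of the adhesion machinery were described from lists. Of 38 tested genes of integrin activation and adhesion, 8 were higher and 3 lower in the CNS of WT cells, where 11.8% of all genes tested were higher and 4.93% lower. In cKO cells 8 were higher and 13 lower, where 24.6% of all genes were higher and 22.7% lower, so their total was near the background of 47.3%. Rasgrp2, the exchange factor that activates Rap1 in T cells and platelets, fell in WT (-3.16 ± 0.26, adjusted p = 1.28e-06) and in cKO cells (-3.27 ± 0.22, adjusted p = 5.9e-08). Rasa3, a Rap1 inhibitor, also fell in both (-1.69 ± 0.34 and -2.27 ± 0.29). Skap2, an adaptor expressed widely in myeloid cells, rose by 1.47 ± 0.25 and 2.66 ± 0.23. Of 13 integrin ligands tested, 9 rose and 1 fell in WT cells and 10 rose and 1 fell in cKO cells, beside the same background shares, and no test compared the list with other genes. Among those that rose in both was Spp1 (osteopontin), at 84.3 ± 44.8 CPM in WT CNS (SD, n = 3) and 3 counts in the WT dLN libraries together. Of the other integrin chains, Itgam, Itgax and Itgb5 rose in both genotypes. Itgb5 was at 14.5, 18.6 and 17.9 CPM in WT CNS and 0, 0.953 and 0 in WT dLN libraries. Itga7 fell by 3.36 ± 0.60 in WT cells (adjusted p = 0.0013). The part of myeloid RNA in these rises was not tested. Klf2, a transcription factor of circulating T cells, fell by 2.28 ± 0.39 in cKO cells (adjusted p = 0.000295), and Zfp683 (Hobit), known from tissue-resident lymphocytes, rose by 2.52 ± 0.49 in WT and 2.85 ± 0.47 in cKO cells. Among membrane partners of integrins, Cd81 rose by 3.10 ± 0.21 and 4.46 ± 0.20 and Cd63 by 6.92 ± 0.57 and 6.04 ± 0.48. For Cd81 and Cd63, too, the part of myeloid RNA was not tested. The median change of the 9 members was -0.16 in WT and -0.96 in cKO cells, beside -0.01 and -0.02 over all genes tested.

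**Figure D4:**
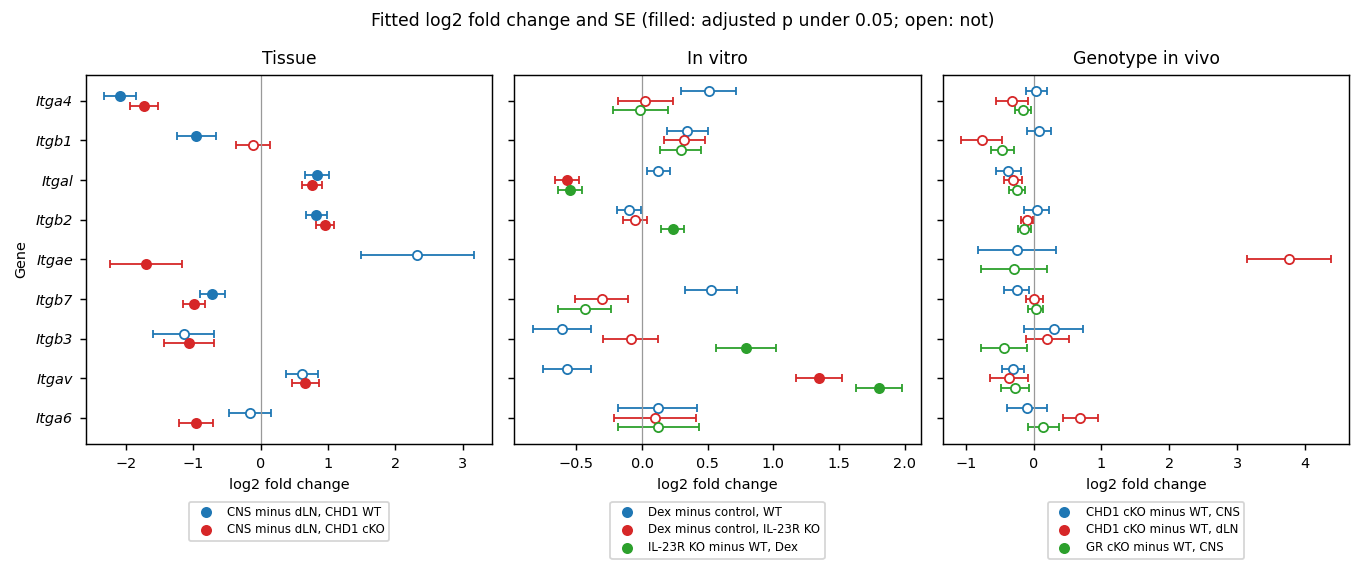
Fitted log2 fold change and SE of the 9 integrin genes (rows) in 8 comparisons over 3 panels with different horizontal scales; filled points passed an adjusted p under 0.05, open points did not. Itga4 stands at -2.08 and -1.73 in the tissue panel and Itgav at 1.35 and 1.80 in the culture panel; Itgae was not tested in culture.

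The second question was what loss of CHD1 changed within a tissue. None of the 9 members was called in dLN cells, where 7 of 9803 genes (0.0714%) were, and none in CNS cells, where 1 of 11157 (0.00896%) was. Under an unadjusted p of 0.05 fell 1971 genes in the dLN and 1326 in the CNS, and DESeq2 called 385 and 178 genes. DESeq2 called 1 member in the dLN, Itgae.

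In the dLN, 3 members did not overlap between genotypes in CPM, against 11% of genes tested. Itgae was at 12.8, 36.2, 19.6 and 5.62 CPM in the 4 cKO libraries and 1.74, 1.59 and 0.855 in the 3 WT libraries. All cKO libraries were above all WT libraries, and the fitted level was 13.5-fold higher (3.76 ± 0.62) with an adjusted p of 0.0608. It was called by edgeR with no filter on low counts (adjusted p = 5.66e-05), in a joint fit of both tissues (adjusted p = 0.0346), by DESeq2 (adjusted p = 8.32e-08) and without cKO library 4 (adjusted p = 0.00216). The order of the cKO libraries by Itgae, 2, 3, 1 and 4, was their order by Cd8a and by Cd8b1, which was at 178, 407, 277 and 67.5 CPM. Both CD8 chains were called higher in the cKO dLN. Regulatory T cells can also carry CD103, and their 4 markers summed to less in the cKO, at 27.2, 28.8, 23.0 and 25.2 CPM against 34.8, 40.7 and 32.3 in the WT dLN libraries, without overlap. None of the 3 tested was called, and their median difference was -0.66. Of the 4, Foxp3 was at 4.09, 5.76, 2.90 and 1.16 CPM in the cKO and at 0 in the WT dLN libraries, and Ikzf2 at 1.204 to 8.23 against 0 to 0.497, whereas Il2ra (-0.84 ± 0.25) and Ctla4 (-0.66 ± 0.27) had the opposite sign. The part of these transcripts in the Itgae difference was not tested. Without the 2 libraries with the most Cd8a, chosen after seeing the data, the Itgae difference was 2.78 (adjusted p = 0.154). These 2 libraries also held the most Itgae, so a smaller difference followed from the choice, and fewer cKO libraries remained.

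**Figure D5:**
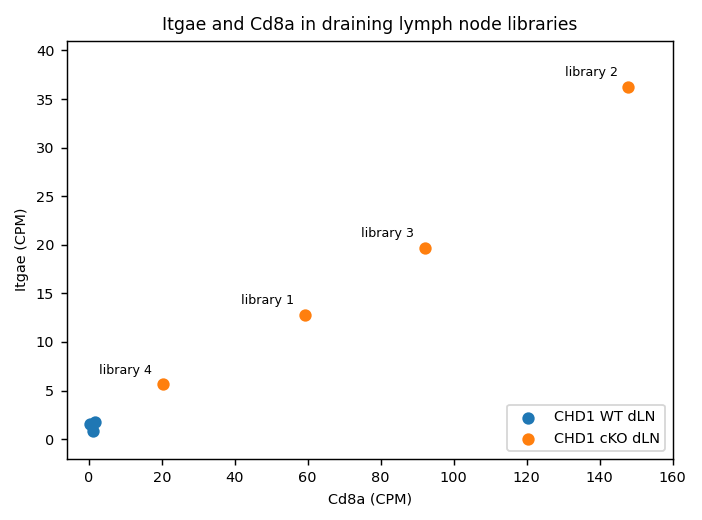
Itgae against Cd8a, both in CPM on linear axes, in the 3 CHD1 WT and 4 CHD1 cKO dLN libraries; points are libraries and numbers name the cKO libraries. The cKO libraries run from 5.62 CPM of Itgae at 20.4 of Cd8a to 36.2 at 147.9, and the WT libraries lie at or below 1.74 on both axes.

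Itgb1 was at 89.3, 42.3, 59.4 and 100.03 CPM in cKO and 139, 149.6 and 121 in WT dLN libraries, also without overlap. The fitted difference of -0.77 ± 0.30 was not called (adjusted p = 0.2), but it was without cKO library 4 (-1.09, adjusted p = 0.0193). Without the 2 libraries with the most Cd8a, chosen after seeing the data, it was -0.36 (adjusted p = 0.572). These 2 libraries also held the least Itgb1 of the cKO group, so a smaller difference followed from the choice, and fewer cKO libraries remained. Itgal was at 86.4, 85.1, 68.1 and 63.2 CPM in cKO and 112, 88.9 and 93.2 in WT dLN libraries (-0.30 ± 0.13, adjusted p = 0.231), and these ranges met after TMM scaling. Itga6 was 0.69 ± 0.26 higher in cKO cells (adjusted p = 0.183), and Itga4, Itgb2, Itgb7, Itgb3 and Itgav overlapped in CPM, with differences of -0.32 ± 0.24, -0.10 ± 0.09, 0.01 ± 0.13, 0.20 ± 0.32 and -0.36 ± 0.28. After TMM scaling the Itgb2 ranges did not overlap. The Itgb7 to Itgb1 ratio per kb was 3.77 to 9.17 in cKO and 3.25 to 3.38 in WT dLN libraries. In the CNS all 9 members overlapped between genotypes in CPM, where 14.1% of genes did not. The largest fitted difference there was that of Itgal, at -0.37 ± 0.18 (adjusted p = 0.445), from 156 to 235 CPM in cKO and 194 to 261 in WT libraries, and after TMM scaling the Itgal ranges did not overlap. The 1 gene called in the CNS was Cd209a, a dendritic cell marker, and the 6 dendritic cell markers summed to 100.4 to 166 CPM in cKO and 41.5 to 68.9 in WT libraries. Their part in the Itgal values was not tested. No gene of the lists of integrin activation, ligands, other chains, membrane partners and linked transcription factors was called in either tissue.

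The third question was what loss of GR changed in CNS cells. None of the 9 members was called, nor was any of 11148 genes (0.0%) by edgeR, while 1226 had an unadjusted p under 0.05 and DESeq2 called 122. The largest fitted difference among members was that of Itgb1, at 105, 105, 88.6 and 133 CPM in GR WT and 59.8, 107, 56.8 and 71.0 in GR cKO libraries. The ranges overlapped through 1 cKO library, and the difference was -0.46 ± 0.17 (adjusted p = 0.36). Itgb2 was the 1 member without overlap in CPM, against 6.68% of genes, at 402, 361, 365 and 337 in WT and 322, 335, 279.7 and 311 in cKO libraries (-0.14 ± 0.09, adjusted p = 0.634), and it overlapped after TMM scaling. Itgal was at 235, 190.2, 208 and 211 CPM in WT and 138, 199, 148 and 181 in cKO libraries (-0.25 ± 0.12, adjusted p = 0.487). Itgae was at 27.2, 27.4, 10.6 and 4.91 CPM in GR WT libraries and 8.87, 9.49, 20.6 and 14.01 in cKO, so it varied more within a genotype than between them. Itga4, Itgb7, Itgb3, Itgav and Itga6 differed by -0.16 ± 0.12, 0.03 ± 0.11, -0.44 ± 0.34, -0.28 ± 0.21 and 0.14 ± 0.23, all with adjusted p of 0.668 or more. The myeloid markers summed to 2277 to 6640 CPM in WT and 4213 to 8041 in cKO libraries. The 8 T cell markers summed to 3370, 2750, 2759 and 2396 CPM in WT and 1646, 2333, 2172 and 2113 in cKO libraries, without overlap, although none of the 8 was called. The part of either marker list in these values was not tested.

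The remaining comparisons concern Th17 cells in culture and ask what Dex changes with and without IL-23R. Itgae passed the low-count filter in none of them, so 8 members were tested. In WT cultures none was called, against 8.08% of 10813 genes, with 2427 at an unadjusted p under 0.05, and DESeq2 called 1 member. Itgav was at 26.1, 38.5, 26.8 and 22.8 CPM in control and 14.9, 19.1, 16.3 and 20.9 in Dex cultures, without overlap. The fitted difference was -0.57 ± 0.18 (adjusted p = 0.0659), and it was called by DESeq2 (adjusted p = 0.0364) and without WT control library 4 (adjusted p = 0.0493). Itgb3 was at 5.04, 4.86, 6.70 and 6.10 CPM in control and 2.16, 3.00, 3.64 and 4.85 in Dex cultures, again without overlap (-0.61 ± 0.22, adjusted p = 0.105), and was called without WT Dex library 4 (adjusted p = 0.0388). Itgb7 was at 53.2, 92.3, 106 and 105 CPM in control and 118, 114, 115 and 126 in Dex cultures (0.52 ± 0.20, adjusted p = 0.123). These 3 members did not overlap in CPM, against 18.1% of genes, but after TMM scaling Itgav and Itgb3 did. Itga4, Itgb1, Itgal, Itgb2 and Itga6 gave 0.51 ± 0.21, 0.34 ± 0.15, 0.13 ± 0.09, -0.10 ± 0.09 and 0.12 ± 0.30.

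In IL-23R KO cultures Dex raised Itgav and lowered Itgal, 2 of 8 members called against 54.7% of genes, 1 higher where 27.3% of genes were and 1 lower where 27.4% were. The IL-23R KO Dex libraries stood apart from the other cultures: the share of counts on repeat and rRNA features was 30.5% to 37.5% against 13.5% to 25.4%, that on mitochondrial transcripts 0.359% to 0.447% against 1.46% to 2.26%, and 6 of 8 T cell markers were called lower. In unscaled CPM the median gene was lower by 0.45 (log2) in KO Dex than in KO control and by 0.31 than in WT Dex cultures, and the fitted values are relative to that shift. The part of these differences in the integrin results was not tested. Itgav was at 32.2, 22.8, 30.3 and 23.1 CPM in KO control and 41.7, 51.8, 52.6 and 55.1 in KO Dex cultures. Every Dex culture was above every control, and the fitted rise was 2.55-fold (1.35 ± 0.17, adjusted p = 5.2e-06). Itgal was at 74.1, 81.4, 73.3 and 78.8 CPM in KO control and 28.02, 43.7, 43.5 and 35.8 in KO Dex cultures, again without overlap. Its fitted fall was 1.49-fold (-0.57 ± 0.09, adjusted p = 4.51e-05), and the LFA-1 beta chain Itgb2 gave -0.05 ± 0.09 (adjusted p = 0.643). Itgb1 gave 0.32 ± 0.15, Itgb7 -0.31 ± 0.20, Itgb3 -0.09 ± 0.21, Itga4 0.02 ± 0.21 and Itga6 0.10 ± 0.31. In CPM, 5 of the 8 members tested did not overlap, against 52.8% of genes tested. After TMM scaling Itgb2, Itgb7 and Itgb3 overlapped, and Itgb1, which overlapped in CPM, did not. Itgae was counted once in the 4 KO Dex libraries together and at 0.281 to 0.898 CPM in KO control.

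The 2 genotypes were then compared directly. In control cultures none of the 8 members was called, against 0.684% of genes, 1051 at an unadjusted p under 0.05 and 122 by DESeq2, and Itgal alone did not overlap in CPM, against 5.44% of genes, at 74.1, 81.4, 73.3 and 78.8 CPM in KO and 63.8, 66.1, 72.2 and 67.1 in WT cultures (0.15 ± 0.09, adjusted p = 0.623). With Dex, 4 of 8 members were called, against 45.9% of genes, 3 higher and 1 lower in the knockout where the background was 22.2% higher and 23.7% lower. In CPM, 3 of the 8 members tested did not overlap, against 45.0% of genes. Itgav was 3.49-fold higher in KO than in WT Dex cultures (1.80 ± 0.18, adjusted p = 5.16e-07), with 41.7 as its lowest KO value and 20.9 CPM as its highest WT value. Itgb3 was at 4.48, 5.42, 5.26 and 4.10 CPM in KO Dex and 2.16, 3.00, 3.64 and 4.85 in WT Dex cultures, overlapping in CPM but not after scaling, and rose by 0.79 ± 0.23 (adjusted p = 0.00917). Itgal fell by 0.55 ± 0.09 on the log2 scale (adjusted p = 0.000108). Itgb2 was called higher in the fit (0.23 ± 0.09, adjusted p = 0.0422) although its mean was lower in unscaled CPM, at 181 ± 26.7 against 191 ± 18.9 (SD, n = 4 each). That call was lost with no filter on low counts (adjusted p = 0.171), in a fit of the 8 Dex libraries (adjusted p = 0.0569) and on leaving out any of 11 of the 16 culture libraries (adjusted p 0.0502 to 0.159): WT control 2 and 3, KO control 5 to 8, WT Dex 2 and 3, and KO Dex 6 to 8. Itgb7 was at 87.9, 76.8, 71.1 and 45.8 CPM in KO Dex cultures, below all WT Dex cultures in CPM but not after TMM scaling, and gave -0.43 ± 0.20 (adjusted p = 0.0886). It was called without WT control library 1 (adjusted p = 0.0348) or KO Dex library 5 (adjusted p = 0.0235). The comparisons in culture share libraries, so a gene high in KO Dex enters several of them.

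The Dex response differed between the genotypes for 3 of 8 members, against 32.2% of genes, with 1 positive against 15% and 2 negative against 17.2%. The interaction was 1.92 ± 0.25 for Itgav (adjusted p = 2.84e-05), -0.70 ± 0.12 for Itgal (adjusted p = 0.000441) and -0.83 ± 0.28 for Itgb7 (adjusted p = 0.0336). The Itgb7 call was lost on leaving out any of 8 of the 16 libraries (adjusted p 0.0502 to 0.0613): KO control 5, 7 and 8, WT Dex 3 and 4, and KO Dex 6, 7 and 8. Within libraries, the Itgav to Itgb3 ratio per kb was 7.63 to 11.005 in KO Dex and 2.54 to 6.49 in the other cultures, and the Itgav to Itgb1 ratio 2.14 to 2.55 against 0.565 to 2.34. The Itgb2 to Itgal ratio was 7.26 to 9.98 in KO Dex and 4.58 to 6.64 in the other cultures, without overlap.

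Among the other integrin chains Itga7, a laminin-binding chain known from muscle, was at 145, 176, 172 and 168 CPM in KO Dex and 54.0, 29.0, 64.9 and 35.0 in KO control cultures (2.30 ± 0.22, adjusted p = 1.91e-07). Of 39 tested genes of integrin activation and adhesion, Dex raised 5 and lowered 3 in WT cultures, where 8.08% of all genes were called. In KO cultures it raised 10 and lowered 11, a total near the background of 54.7%. Rap1a, a GTPase that activates LFA-1, was 1.02 ± 0.10 (log2) lower in KO than in WT Dex cultures (adjusted p = 6.18e-07). Bcar1, a focal adhesion scaffold, was 2.18 ± 0.19 higher (adjusted p = 1.74e-07). Of 10 integrin ligands tested, Dex raised 2 and lowered 1 in WT and raised 4 and lowered 1 in KO cultures, beside the same backgrounds of 8.08% and 54.7%. Tgfb3, a TGF-beta ligand, rose by 2.28 ± 0.25 in WT and 4.62 ± 0.25 in KO cultures. Spp1, a ligand of Itgav with Itgb3, was at 44.4, 20.8, 9.64 and 29.1 CPM in WT Dex and 0.448, 0.602, 0 and 0.216 in KO Dex cultures, and it fell with Dex in WT (-1.51 ± 0.42, adjusted p = 0.0365) and in KO cultures (-7.49 ± 0.85, adjusted p = 1.37e-06). Mfge8, a bridging ligand of the same receptor, rose by 0.60 ± 0.13 and 1.75 ± 0.13. Of 9 transcription factors and TGF-beta pathway genes linked to integrin genes, 5 were higher and none lower in KO than in WT Dex cultures, where 22.2% of all genes were higher and 23.7% lower, among them Smad3 (0.92 ± 0.15), Runx1 (0.85 ± 0.11) and Runx3 (0.76 ± 0.12). The membrane partners Cd81 and Cd82 were 0.81 ± 0.06 and 0.97 ± 0.07 higher and Cd226, which associates with LFA-1, 1.29 ± 0.19 lower. These counts describe the lists, and no test compared a list with other genes.

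The members that varied most over the 16 culture libraries were Itgav, Itgb7 and Itgal. Among 6176 genes averaging at least 10 CPM, those most like Itgav in log2 CPM were Sun1 (Pearson r = 0.91), Higd1a (0.90) and Alkbh5 (0.90). Those most like Itgal were Rap1a (0.98), Mpi (0.97) and Alad (0.97), and those most like Itgb7 were Pdcd2 (0.92), Eif3f (0.92) and Rnaset2b (0.91). These correlations over libraries that share the KO Dex shift are given as descriptions.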

How the data were processed

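RNA was sequenced with a modified SMART-Seq2 protocol with 12 cycles of amplification, per the labels' protocols. The deposited values were expected counts (estimated counts) per gene symbol, made by the authors with RSEM 1.3.3 on mm10, as the submitters' processing notes list them. All deposited values are whole numbers, and the annotation and any strand setting are not given in the sources used here. Levels were computed as CPM over all deposited counts, and per kilobase of the longest principal coding transcript in GENCODE M21. A count of 0 allows up to 3 counts, which is 0.328 to 0.953 CPM over the libraries and covers counting error only.

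Genes passing filterByExpr (minimum count 10, minimum total 15) were tested on TMM-scaled counts with edgeR 4.0.16 (R 4.3.3), by the quasi-likelihood F test, with Benjamini-Hochberg adjustment over all genes tested, and called at an adjusted p under 0.05. SE is the absolute log2 fold change over the square root of F. Genotype contrasts in vivo were fitted within their table, the 16 culture libraries in 1 fit and the 14 CHD1 libraries in 1 fit. Alternatives were DESeq2 1.42.0, its size factors in edgeR, no filter, no repeat features, fewer or more libraries, each library left out and the library number as a block. The script was tested on simulated counts. In 54 within-group pairs of libraries, chi-square over its degrees of freedom was 3.74 or more, so none was treated as a duplicate.

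All 9 genes were named in each comparison, with up to 4 called genes of each other list by largest change among those whose higher group averaged at least 5 CPM. The genes of the checks on labels and cell mixture were named beyond that rule, after their values were seen. The members and lists were chosen with earlier results of these data known.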

Additional observations from a re-analysis of the deposited data

Results flagged for a closer look

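In the 72 gene and group combinations with 4 libraries, 3 had a library set apart from the rest of its group by more than a gap test allows. Chance gives about 1 in 20, so 3 of 72 is no more than chance gives. Itgae was at 0.216 CPM in IL-23R KO Dex library 8, which is 1 count, against 0 in the other 3 libraries. Itgb7 was at 386 CPM in CHD1 cKO dLN library 1 against 265 to 274 in the other 3. Itgb3 was at 14.5 CPM in CHD1 cKO CNS library 2 against 3.91 to 5.09.

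The effect of Dex differed between the genotypes by the interaction test for Itgav (1.92 ± 0.25), Itgal (-0.698 ± 0.12) and Itgb7 (-0.829 ± 0.28).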

How the results depend on the processing

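Of 520 values recomputed under another setting, 499 kept their direction and their side of the threshold, and 1108 of 1216 did with 1 library left out. Removing repeat features changed no count of calls past 1.5 times. With no filter the genes called were 72 for CHD1 cKO in the CNS, 511 in the dLN (1 member), 4 for GR cKO and 172 for the genotype by tissue interaction (1 member). With DESeq2 they were 178, 385 (1 member), 122 and 586 (1 member), with 122 for IL-23R KO controls, and 1 member was called for Dex in WT. Both CHD1 tables in 1 fit gave 3 genes in the CNS and 192 in the dLN (1 member). DESeq2 size factors gave 7 genes for the interaction, and the 8 control libraries alone 42 for IL-23R KO controls. Without the 2 CHD1 cKO dLN libraries with the most Cd8a, chosen after seeing the data, the calls were 1 in the dLN, 1 for the interaction and 3648 between tissues in cKO cells (6 members), and Itga4 in the dLN was 0.0203 and the Itgb3 interaction -0.313. The causes were not tested.

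Library numbers are shared between the CHD1 groups and between control and Dex, but deviations of same-numbered libraries correlated at -0.0803 to 0.109, so the numbers were not taken to pair the samples. With a replicate block the calls were 3 genes in the CNS, 613 in the dLN (2 members) and 52 for the interaction; Itgb1 and Itgb2 in the CNS became -0.0227 and -0.0442, Itgb7 in the dLN -0.0347 and the Itgb3 interaction -0.000262. The block changed no member's call but those of Itgae and Itgb1 in the dLN. No paired analysis was possible because the numbers differ between groups for GR cKO against WT and IL-23R KO against WT. Itga4 under Dex in IL-23R KO was -0.0181 with no filter.

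With 1 library left out, the genes called ranged from 0 to 2 for CHD1 in the CNS, 0 to 990 in the dLN (members 0 to 2; 990 without cKO library 4), 0 to 2 for GR, 531 to 950 for Dex in WT (members 0 to 1), 26 to 77 for IL-23R KO controls and 0 to 648 for the interaction (members 0 to 2; 648 without cKO dLN library 4). Between tissues in WT cells 3 to 7 members were called. Values that changed sign were not called with all libraries. In the CHD1 CNS they were Itga4 (-0.0518 to 0.12), Itgb1 (-0.0242 to 0.196), Itgb2 (-0.0566 to 0.179), Itgae (-0.529 to 0.116), Itgb3 (-0.286 to 0.493) and Itga6 (-0.33 to 0.0726). In the dLN they were Itgb7 (-0.0444 to 0.108) and Itgb3 (-0.108 to 0.398), and for GR Itgae (-0.61 to 0.0111), Itgb7 (-0.0381 to 0.102) and Itga6 (-0.0487 to 0.223). For Dex they were Itga6 in WT (-0.0311 to 0.476) and Itga4 (-0.0461 to 0.117), Itgb2 (-0.119 to 0.00991) and Itga6 (-0.0758 to 0.241) in IL-23R KO. For IL-23R KO they were Itgav (-0.233 to 0.0725) and Itga6 (-0.00659 to 0.501) in control and Itga4 (-0.158 to 0.12) in Dex cultures, and for the Dex interaction Itgb1 (-0.145 to 0.0705), Itgb2 (-0.0294 to 0.112) and Itga6 (-0.379 to 0.127). Between tissues they were Itga6 in WT (-0.331 to 0.0677) and Itgb1 in cKO (-0.347 to 0.196), and for the interaction Itgal (-0.178 to 0.0613), Itgb3 (-0.493 to 0.401) and Itgav (-0.136 to 0.255).

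Itgae was too low in culture for a comparison, at 0 to 5 counts per library.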
